A study of Mus musculus with 17 samples.

Results

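The oocyte-expressed maternal genes are 32 genes whose RNA the growing oocyte makes and stores. They were taken from a given list of symbols, with H1foo read under that older name of H1f8, and all 32 were found among the 25198 genes of the deposited count table. A total of 21 had enough counts to be tested, which required about 2.32 CPM (counts scaled to the library total for this filter, and to edgeR's effective library size elsewhere) in at least 6 of the 17 libraries, and 11 did not. The samples were ovarian follicles of CD1 mice, given as 16 days old, which had been cultured for 8 days in eIVFG, an encapsulated in vitro growth system, and had reached the antral stage. Gene expression was measured by bulk RNA-seq, with Smart-Seq2 libraries made from the lysate of 3 follicles per sample. The 6 Tyrphostin libraries came from follicles given 10 µM Tyrphostin-AG1478, an inhibitor of the EGF receptor kinase, in DMSO together with hCG, the LH-like hormone that starts ovulation in culture, for 4 h. The 11 Control libraries carry only the word Control. The protocol text is the same for all 17 samples, so whether Control follicles received hCG or DMSO is not stated. The labels also name 2 batches without saying what a batch was. Batch 1 held Control 1 to 6 and Tyrphostin 1 to 3, and batch 2 held Control 7 to 11 and Tyrphostin 4 to 6. Control library names fall into 5 numbered sets, and whether libraries share animals or cultures is not stated. The p-values therefore measure the spread between these libraries, which may be partly technical.

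A follicle holds a single oocyte inside layers of granulosa and cumulus cells. The oocyte secretes growth factors that act on those cells, builds the zona pellucida around itself, and loads its cytoplasm with proteins and mRNAs that the embryo uses before its own genome is switched on. Much of the stored mRNA is kept with short poly(A) tails and is polyadenylated, translated or degraded when meiosis resumes. Smart-Seq2 starts cDNA synthesis from poly(A), so a level here is that of RNA with a tail that could be primed, not of all stored RNA. In the preovulatory follicle the LH signal reaches the oocyte through the somatic cells, partly by way of the EGF receptor that Tyrphostin-AG1478 blocks.

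Many of these genes depend on FIGLA, a basic helix-loop-helix factor of the oocyte that binds E-boxes and is itself on the list. RefSeq promoter windows (GRCm38.p6, from 250 bases before to 50 bases after an annotated start) matched 24 of the 32 genes, with 29 windows. The E-box CACCTG, or CAGGTG on the other strand, occurred in 15 of the 29 windows (51.7%), against 6640 of all 32851 windows of this length (20.2%). The homeobox letters TAATTG on either strand, or the palindrome TAATTA, occurred in 17.2% of the members' windows and 12.4% of all windows. For TGATTG on either strand, letters of the kind LHX8 binds, the shares were 17.2% and 14.0%. Neighbouring matches of these motifs can share end letters, such as TG, but never a whole site. These are matches of letters and not measured binding. The 250 bases before the start are shown for 5 genes with an E-box that were higher in batch 2 in the tests below, followed by Nlrp4f, which was higher too and has no such letters in its window. Tle6, also higher, has none either, and among the genes with an E-box Padi6, Btg4 and Zbed3 were not called. Each runs 5′ to 3′ on the strand of the gene, and capitals mark the E-boxes.
Zp3, chr5:135979855-135980104, plus strand: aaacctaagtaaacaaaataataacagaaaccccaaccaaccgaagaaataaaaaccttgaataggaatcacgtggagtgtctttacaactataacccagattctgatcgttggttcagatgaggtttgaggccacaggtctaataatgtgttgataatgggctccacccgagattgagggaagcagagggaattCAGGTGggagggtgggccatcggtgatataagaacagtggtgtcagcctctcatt
H1foo (RefSeq H1f8), chr6:115944681-115944930, plus strand: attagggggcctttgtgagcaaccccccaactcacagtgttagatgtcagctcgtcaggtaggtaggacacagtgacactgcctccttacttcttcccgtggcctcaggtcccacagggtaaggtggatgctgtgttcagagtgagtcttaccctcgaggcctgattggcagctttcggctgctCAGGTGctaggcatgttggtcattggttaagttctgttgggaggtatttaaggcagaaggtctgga
Nobox, chr6:43309555-43309804, minus strand: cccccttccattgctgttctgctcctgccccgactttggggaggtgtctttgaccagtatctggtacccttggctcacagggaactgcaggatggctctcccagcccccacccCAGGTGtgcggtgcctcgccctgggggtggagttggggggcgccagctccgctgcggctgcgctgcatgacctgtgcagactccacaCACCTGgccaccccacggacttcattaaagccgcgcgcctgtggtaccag
Tcl1, chr12:105222738-105222987, minus strand: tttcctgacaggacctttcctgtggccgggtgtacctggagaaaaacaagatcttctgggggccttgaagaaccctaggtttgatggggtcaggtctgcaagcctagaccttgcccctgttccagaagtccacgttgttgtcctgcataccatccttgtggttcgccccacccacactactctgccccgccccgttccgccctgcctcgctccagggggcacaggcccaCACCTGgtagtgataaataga
Zar1, chr5:72581085-72581334, minus strand: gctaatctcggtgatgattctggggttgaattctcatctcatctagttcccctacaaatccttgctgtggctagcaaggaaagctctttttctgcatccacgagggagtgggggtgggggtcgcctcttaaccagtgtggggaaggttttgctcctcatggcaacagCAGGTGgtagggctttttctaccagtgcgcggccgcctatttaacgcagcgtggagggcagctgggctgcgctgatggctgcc
Nlrp4f, chr13:65205717-65205966, minus strand: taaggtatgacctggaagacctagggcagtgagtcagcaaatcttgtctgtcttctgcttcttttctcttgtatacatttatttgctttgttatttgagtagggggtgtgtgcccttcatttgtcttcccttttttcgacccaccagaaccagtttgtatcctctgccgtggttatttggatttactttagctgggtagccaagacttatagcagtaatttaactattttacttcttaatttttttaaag
The first bases of these E-boxes lay 55 bases before the start in Zp3, 66 in H1foo, 137 and 50 in Nobox, 21 in Tcl1 and 83 in Zar1. Zp3 encodes a zona pellucida glycoprotein, H1foo the linker histone of the oocyte, Nobox a homeobox factor, Tcl1 a coactivator of the kinase AKT, and Zar1 a protein that binds maternal mRNA.

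Library totals ran from 1820545 to 8291024 counts in Control and from 3077632 to 7451417 in Tyrphostin. A floor of 3 counts corresponds to 0.336 CPM in the deepest library and 1.64 CPM in the shallowest. Granulosa cell markers held 5.79% to 8.24% of all counts. Nearly all of these came from Inha (3517770 counts over the 17 libraries) and Inhba (1908560), with Fst next at 36991. The 32 maternal genes held 0.0163% to 0.0969%, a small part of each library. Control 9, with 2483183 counts, was the lowest of its group and batch for 19 of the 21 genes tested. The same count over all genes was not made. Control 7 had 0.175% of its counts in mitochondrially encoded genes, against 0.781% to 2.83% in the other 16 libraries. Reads copied by PCR from the same molecule are not independent, so the floors and the intervals for shares describe only the error of counting.

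Between genes, levels were compared as CPM per kilobase of exon (median of the 17 libraries, with the lowest and highest). Zbed3, a member of the subcortical maternal complex that is also known as a partner of Axin in other cells, was at 112 (38.7 to 207), at percentile 96.6 of the genes tested. H1foo followed at 22.8 (5.61 to 79.6). Bcl2l10, a BCL2 family protein of the oocyte, was at 6.60, Gdf9 at 6.52, Padi6 at 5.40, Tcl1 at 5.18 and Nlrp14 at 5.16, and the ranges of these 5 overlap. The zona genes followed as Zp3 at 3.24, Zp2 at 2.12 and Zp1 at 1.46. Kit had a median of 0.527 and Nlrp5 0.448 on this scale. In the whole order the ranges of neighbouring genes overlap, so it ranks medians only. Figla and Sohlh1 had a median of 0.

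Zbed3 alone made up 30.1% to 75.4% of the counts of the 32 genes, and its share of them was 58.4% to 75.4% in batch 1 and 30.1% to 53.9% in batch 2, with no overlap. Zbed3 therefore weighs heavily in the summed share of the 32. Without Zbed3, Kit, Gpr3, Tle6 and Oosp1, which cells other than oocytes may express, 27 genes were left. In Control these 27 held 0.0105% ± 0.00438 (SD, n = 6) of all counts in batch 1 and 0.0237% ± 0.00958 (SD, n = 5) in batch 2. In Tyrphostin they held 0.0113% ± 0.00489 (SD, n = 3) in batch 1 and 0.0416% ± 0.0229 (SD, n = 3) in batch 2. The lowest library was Control 1 with 0.00416% (95% Wilson interval 0.00359 to 0.00483), and the highest Tyrphostin 6 with 0.0660% (0.0638 to 0.0683). In batch 2 all libraries except Control 9, at 0.00745%, lay above the highest of batch 1, at 0.0161%. In a bulk sample, fewer or smaller oocytes and less RNA of a gene per oocyte cannot be told apart.

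**Figure D1:**
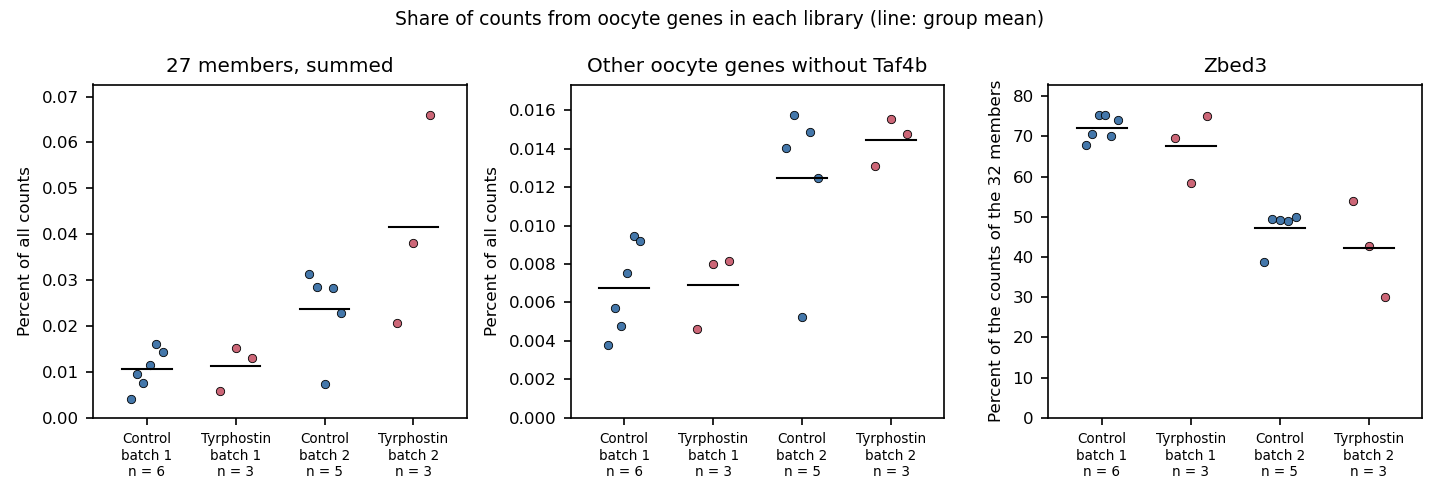
Share of counts from oocyte genes in each of the 17 libraries, by group and batch (points: libraries; lines: group means). Left, the 27 genes in percent of all counts, with Tyrphostin 6 highest at 0.0660%. Centre, the list of 47 other oocyte genes without its most abundant member, Taf4b, in percent of all counts, where the highest library is Control 8 at 0.0158% (with Taf4b it is Tyrphostin 3 at 0.0265%). Right, Zbed3 in percent of the counts of the 32 genes, with every batch 2 library below every batch 1 library.

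The comparison of Tyrphostin with Control asked whether the maternal RNAs differed after 4 h with the inhibitor. Whether Control follicles received hCG or DMSO is not stated. A difference could therefore not be assigned to the EGF receptor kinase alone. With batch as a term, edgeR's quasi-likelihood test called 0 of the 21 genes at an adjusted p under 0.05, where it called 10.6% of all 9603 genes tested. At an unadjusted p under 0.05 it found 1 of the 21, Zp2, against 23.7% of all genes. DESeq2 called 1 (again Zp2), against 13.7% of all genes, and limma-voom called 0, against 11.7%. The median log2 fold change of the 21 was 0.13, beside 0.00 for all genes, with 15 values above 0 and 6 below. With total-count scaling, which moved the median of all genes to 0.15, the median of the 21 was 0.30.

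The intervals show what the test could and could not see. For 10 of the 21 genes the 95% interval lay within 1 log2 unit of 0 on both sides. It was narrowest for Nlrp4f, an oocyte NLRP protein, whose CPM ran from 2.97 to 22.8 (median 10.2) in Control and from 2.87 to 21.02 (median 13.6) in Tyrphostin. The groups overlapped over nearly their whole range, and the log2 fold change was 0.16 ± 0.27 (SE; 95% interval -0.39 to 0.71). Tle6, a subcortical maternal complex subunit, gave 0.09 (-0.53 to 0.72) and Gdf9, the growth factor that oocytes send to cumulus cells, gave -0.09 (-0.72 to 0.55). For 12 genes the upper bound was under 1, and for 19 the lower bound was above -1. Values above 1 were thus inside the interval of 9 genes, and values below -1 inside that of Ooep and Mos.

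The zona pellucida genes, whose glycoproteins form the coat that sperm bind, had values above 0, and that of Zp2 was the largest of the 21. Zp2 ran from 0.539 to 12.8 CPM (median 5.38) in Control and from 4.16 to 76.3 (median 7.73) in Tyrphostin. Only the 2 highest Tyrphostin libraries, both of batch 2, lay above all Control libraries. Its log2 fold change was 1.37 ± 0.49 (SE; 95% interval 0.33 to 2.41; edgeR p = 0.0130, adjusted p = 0.0908). DESeq2 gave an adjusted p of 0.0300 and limma-voom 0.295. Over all alternatives the adjusted p ran from 0.0300 to 0.479. It was 0.0195 without Tyrphostin 4, and without Tyrphostin 6 the log2 fold change was 0.63. The values for Zp3 and Zp1 were 0.80 ± 0.46 and 0.41 ± 0.43 (SE).

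Among the growth factors, Bmp15, the partner of Gdf9, gave -0.06 ± 0.34 (SE). In the subcortical maternal complex, a lattice under the oocyte membrane needed for the first cleavages, Padi6 gave 0.82 ± 0.57, Nlrp5 0.80 ± 0.62, Zbed3 -0.08 ± 0.27 and Ooep -0.44 ± 0.37 (SE). Nlrp14, another NLRP protein, gave 0.69 ± 0.42. The chromatin and RNA factors gave 0.40 ± 0.42 for Dppa3, which protects maternal DNA methylation, 0.35 ± 0.37 for Zar1 and 0.04 ± 0.36 for H1foo. Mos, the kinase that drives MAPK activity in meiosis, gave -0.35 ± 0.43, and Btg4, an adaptor for maternal mRNA decay, 0.13 ± 0.37. Nobox gave 0.05 ± 0.44, Bcl2l10 0.40 ± 0.36, Tcl1 -0.13 ± 0.39 and Kit, the receptor for KIT ligand, 0.12 ± 0.34. None of these passed the test, and with total-count scaling Gdf9, Bmp15, Tcl1 and Zbed3 had values above 0 (0.05, 0.08, 0.03 and 0.07).

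**Figure D2:**
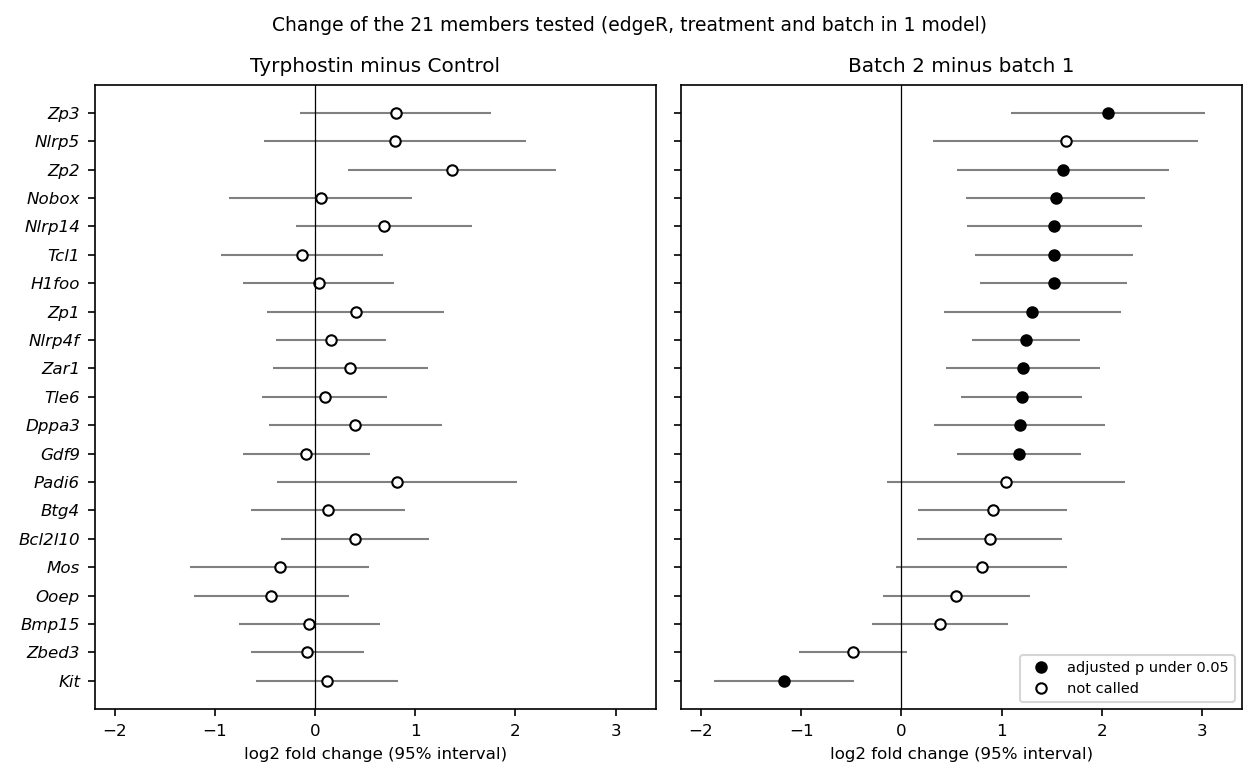
Log2 fold change with 95% interval (edgeR, treatment and batch in 1 model) of the 21 genes tested. Left, Tyrphostin minus Control: no gene is called, and Zp2 is furthest from 0 at 1.37. Right, batch 2 minus batch 1: filled points mark 13 genes with an adjusted p under 0.05, from Zp3 at 2.06 to Kit at -1.17.

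Within batch 1 edgeR called 0 of the 18 genes it could test, against 6.73% of all genes, and 0 had an unadjusted p under 0.05, against 21.2%. DESeq2 called 0 as well. Zp1, Nobox and Mos were too low to test there. Within batch 2, where Nlrp9b and Oog1 could be tested as well, edgeR called 0 of 23, against 0.621% of all genes, and DESeq2 called 0. There 4 had an unadjusted p under 0.05, against 10.7% of all genes: Zp2 at 1.97 ± 0.71 (SE), Padi6 at 1.70 ± 0.62, Zp3 at 1.36 ± 0.61 and Nlrp14 at 1.24 ± 0.49. In batch 1 the same 4 gave 0.61 ± 0.45, -0.24 ± 0.62, 0.01 ± 0.56 and 0.06 ± 0.48. The median of the genes tested was 0.00 in batch 1 and 0.37 in batch 2. The difference between the batches, tested as an interaction, passed for 0 of 21 genes in edgeR and in DESeq2, as for 0% of all genes. At an unadjusted p under 0.05 the interaction held for 1, Zp1 (1.71 ± 0.80), against 3.56% of all genes. For Padi6, a protein of the oocyte's cytoplasmic lattices, the interaction was 1.94 ± 1.02 (edgeR p = 0.0767), and it was called in a fit without the filter on low counts, as were 0.365% of all genes.

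The batch 2 values of these genes rested on individual Tyrphostin libraries. Zp2 was at 4.25, 24.8 and 76.3 CPM in Tyrphostin 4, 5 and 6. Padi6 was at 9.05, 29.6 and 97.0 CPM in the same order, and Nlrp14 at 18.2, 46.1 and 122 CPM. Each of these 3 genes was thus several times higher in Tyrphostin 6 than in Tyrphostin 4, in libraries with the same labels. Zp3 (4.12, 17.8 and 44.6 CPM) and Nlrp5 (0.686, 11.3 and 20.5 CPM) spread the same way. Other maternal genes were nearly level across the same 3 libraries: Nlrp4f at 20.4, 21.02 and 17.9 CPM, Tcl1 at 19.3, 20.8 and 24.1 CPM, and Bcl2l10 at 10.7, 10.2 and 12.1 CPM. Bmp15 was at 4.80, 3.50 and 4.48 CPM. The maternal genes therefore did not keep 1 ratio to each other in these libraries.

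Against the mean of Tyrphostin 4 and 5, Tyrphostin 6 was 5.25-fold higher for Zp2, 5.01-fold for Padi6, 4.07-fold for Zp3, 3.80-fold for Nlrp14 and 3.42-fold for Nlrp5. Without Tyrphostin 6 the log2 fold change between treatments was 0.07 for Padi6, 0.15 for Zp3, 0.15 for Nlrp14 and 0.24 for Nlrp5. For 10 of the 21 genes the ratio to Tyrphostin 4 and 5 was over 2, and for Nlrp4f, Mos and Kit it was 0.864, 0.799 and 0.671. Tyrphostin 6 was the highest of all 17 libraries for 11 genes, namely Gdf9, Zp1, Zp2, Zp3, Nlrp5, Tle6, Padi6, Nlrp14, Dppa3, Zar1 and Nobox. Control 7 was the highest for 6 others: Ooep, H1foo, Mos, Btg4, Tcl1 and Bcl2l10. The matching counts over all genes tested were not made, so these counts do not set the maternal genes apart. In shares of the counts of the 27 genes, Nlrp14 (19.8%), Padi6 (15.7%) and Zp2 (12.3%) led in Tyrphostin 6, while H1foo (27.6%) and Tcl1 (14.5%) led in Control 7. A list of 47 other oocyte genes held 0.0152%, 0.0172% and 0.0208% of counts in Tyrphostin 4, 5 and 6, with Tyrphostin 6 highest. Its most abundant gene, Taf4b, was at 19.2, 13.7 and 56.3 CPM in these libraries, and without it the other 46 held 0.0131%, 0.0156% and 0.0148%. The order thus turns on Taf4b.

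**Figure D3:**
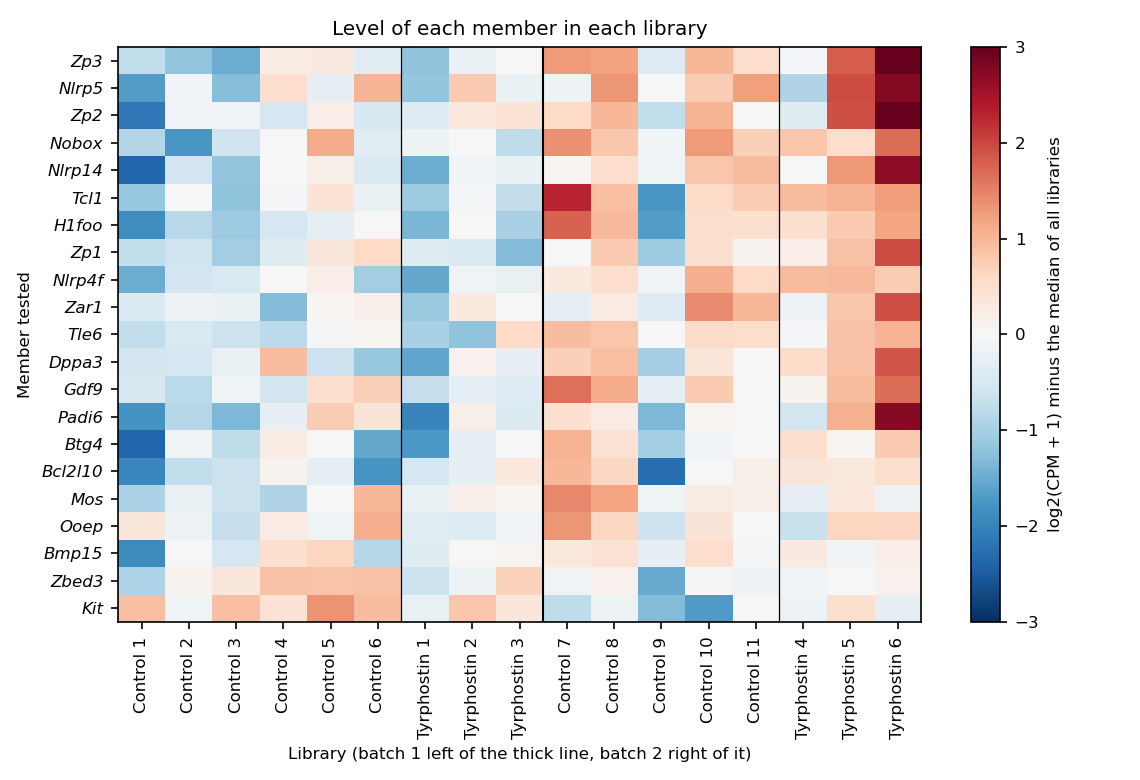
Level of each of the 21 genes tested in each library, as log2(CPM + 1) minus the median of the gene over the 17 libraries (red above, blue below; colours end at 3 on either side; genes in order of the batch difference). Batch 1 is left of the thick line. Tyrphostin 6 is deepest red for Zp2, Zp3, Nlrp5, Nlrp14 and Padi6, Control 9 is blue for most genes, and the row of Kit runs the other way.

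The largest pattern in these genes ran with batch. With treatment as a term, edgeR called 13 of the 21 between batch 2 and batch 1, against 21.2% of all genes. Of these 12 were higher in batch 2, against 10.6% of all genes, and 1 was lower, against 10.6%. With total-count scaling, which moved the median of all genes in this contrast to 0.21, 16 were called, against 24.8% of all genes. Of these 15 were higher, against 18.7%, and 1 was lower, against 6.05%. DESeq2 and limma-voom also called 13 each, against 25.2% and 21.7% of all genes. The median log2 fold change of the 21 was 1.20, beside 0.03 for all genes, and 19 values were above 0. The ranges overlapped in every one of the 21. All batch 2 libraries lay above all batch 1 libraries for 1.23% of all genes. Within Control the batches did not overlap for 3.41% of all genes (batch 2 above) and 3.82% (batch 2 below), and for 0 of the 21. Between treatments the figures were 0.51% (Tyrphostin above) and 1% (below), and again 0 of the 21. Of the 21, 14 reached the cutoff of the filter on low counts in at least 6 libraries of batch 1. The others (Zp1, Zp3, Ooep, Dppa3, Nobox, Nlrp5 and Mos) needed batch 2 libraries to pass, so the count over the 21 is a description. Without that filter, with all 32 tested, 11 were called (10 higher, 1 lower; all but Zp2 and Dppa3), against 8.65% of all genes.

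All 3 zona genes tested were higher in batch 2, though Zp1 and Zp3 passed the filter on low counts only with batch 2 libraries. Zp3 ran from 0.897 to 5.36 CPM (median 3.28) in batch 1 and from 3.04 to 44.6 (median 10.4) in batch 2. Of the 8 batch 2 libraries, only Control 9 and Tyrphostin 4 were within the batch 1 range. Its log2 fold change was 2.06 ± 0.46 (SE; edgeR adjusted p = 0.00359), a 4.18-fold difference with a 95% interval of 2.14 to 8.19. For Zp2 the range was 0.539 to 8.00 CPM (median 5.34) in batch 1 and 3.04 to 76.3 (median 10.9) in batch 2, with much overlap. The log2 fold change of Zp2 was 1.62 ± 0.50 (SE; edgeR adjusted p = 0.0288), and that of Zp1 1.31 ± 0.43 (SE; edgeR adjusted p = 0.0309). Without Tyrphostin 6 these values were 1.60 for Zp3, 1.05 for Zp2 and 0.94 for Zp1, and the calls of Zp2 and Zp1 were lost. Both were also lost without Control 8, Tyrphostin 1, Tyrphostin 2 or Tyrphostin 3, that of Zp2 without Control 10, and that of Zp1 without Control 2 or Control 3 (log2 values 1.09 to 1.56).

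Of the growth factors, Gdf9 was higher and Bmp15 did not pass. Gdf9 ran from 7.12 to 22.4 CPM (median 9.95) in batch 1 and from 10.9 to 44.8 (median 25.1) in batch 2. Control 9, Control 11 and Tyrphostin 4 of batch 2 were within the range of batch 1. Its log2 fold change was 1.17 ± 0.30 (SE; edgeR adjusted p = 0.00716). Bmp15 ran from 0.270 to 6.49 CPM (median 3.73) in batch 1 and from 3.04 to 5.94 (median 4.64) in batch 2, and gave 0.38 ± 0.33 (SE; edgeR adjusted p = 0.442). The 2 secreted partners thus had different calls, and their difference was not tested.

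In the subcortical maternal complex, Tle6 was the 1 of 5 subunits tested that was called. Cells other than oocytes may express Tle6 and Zbed3, so their RNA cannot be assigned to the oocyte here. Tle6 ran from 1.71 to 8.39 CPM (median 2.99) in batch 1 and from 4.94 to 11.8 (median 9.16) in batch 2. The log2 fold change was 1.20 ± 0.29 (SE; edgeR adjusted p = 0.00504). Nlrp5, also known as MATER, gave 1.64 ± 0.63 and Padi6 1.05 ± 0.56 (SE), with edgeR adjusted p of 0.0712 and 0.202. Ooep gave 0.55 ± 0.36 (SE). Zbed3, the most abundant, was on the other side of 0 at -0.48 ± 0.26 (SE; edgeR adjusted p = 0.197).

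Both NLRP genes outside that complex that could be tested were higher. Nlrp4f had the lowest p of the 21: it ran from 2.87 to 11.9 CPM (median 7.17) in batch 1 and from 9.56 to 22.8 (median 16.96) in batch 2. Only the lowest batch 2 library, Control 9, fell inside the batch 1 range. Its log2 fold change was 1.24 ± 0.26 (SE; edgeR adjusted p = 0.00155), or 2.37-fold with a 95% interval of 1.63 to 3.44. Nlrp14 ran from 2.70 to 20.9 CPM (median 13.1) in batch 1 and from 16.5 to 122 (median 30.0) in batch 2, and gave 1.53 ± 0.41 (SE; edgeR adjusted p = 0.0136). The Nlrp genes are a family of related sequences, as are Tcl1 and Oog1 with their neighbours, and reads that paralogs share may have been split or dropped in counting.

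All 3 chromatin and RNA factors tested were higher, though Dppa3 passed the filter on low counts only with batch 2 libraries. H1foo ran from 6.74 to 27.4 CPM (median 14.9) in batch 1 and from 7.82 to 95.5 (median 44.2) in batch 2. The other 7 batch 2 libraries lay above the whole of batch 1, and Control 9 near its lower end. Its log2 fold change was 1.52 ± 0.35 (SE; edgeR adjusted p = 0.00449). Zar1 gave 1.21 ± 0.37 (SE; edgeR adjusted p = 0.0213) and Dppa3 1.18 ± 0.41 (SE; edgeR adjusted p = 0.0443). Dppa3 was called in 3 of the 17 fits that left out 1 library (without Control 4, 9 or 11), with values from 0.90 (without Tyrphostin 6) to 1.54. Zar1 lost its call without Tyrphostin 6 (0.90) or Control 10 (1.01).

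Nobox, the 1 transcription factor of 4 that could be tested, was higher at 1.54 ± 0.43 (SE; edgeR adjusted p = 0.0129). It had 0 to 6.21 CPM (median 1.64) in batch 1 and 2.17 to 9.70 (median 4.88) in batch 2. Nobox too passed the filter on low counts only with batch 2 libraries. Tcl1 was higher at 1.53 ± 0.38 (SE; edgeR adjusted p = 0.00684), from a median of 8.21 CPM to 19.0 CPM. The maturation genes Mos and Btg4 gave 0.80 ± 0.41 and 0.91 ± 0.36 (SE), with edgeR adjusted p of 0.172 and 0.0752. Bcl2l10 gave 0.88 ± 0.35 (SE; edgeR adjusted p = 0.0754).

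Kit was the only gene of the 21 called lower in batch 2. It ran from 3.87 to 13.5 CPM (median 9.17) in batch 1 and from 0.767 to 7.01 (median 3.92) in batch 2. The lowest library was Control 10, and the ranges overlap. Its log2 fold change was -1.17 ± 0.34 (SE; edgeR adjusted p = 0.0149), or 0.444-fold with a 95% interval of 0.274 to 0.719. Oocytes carry this receptor, and theca cells do as well. Its somatic ligand Kitl gave 0.54 ± 0.35 (SE; edgeR adjusted p = 0.302) in the same contrast.

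**Figure D4:**
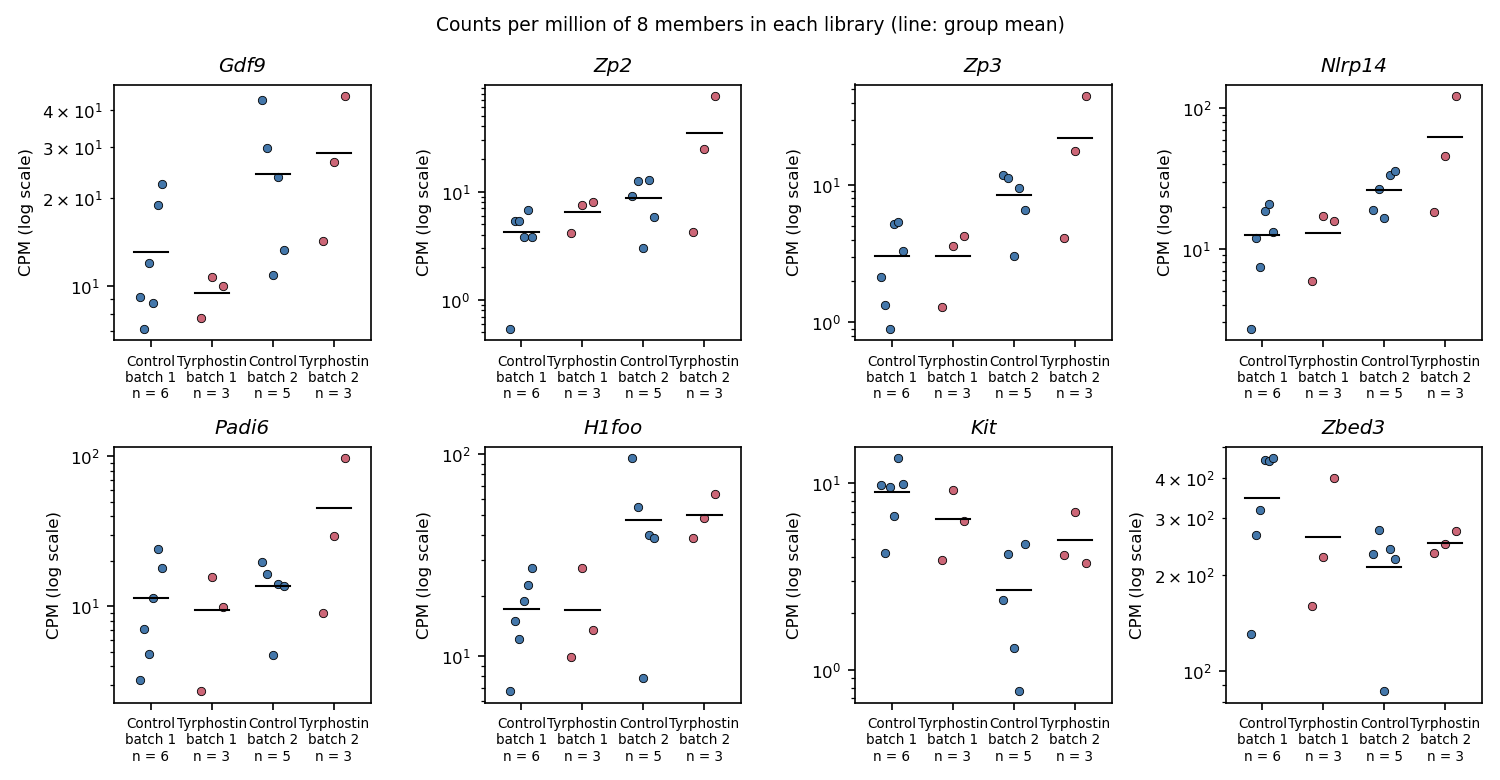
CPM (log axis) of 8 of the genes in each library, by group and batch (points: libraries; lines: group means). Zp2, Padi6 and Nlrp14 reach 76.3, 97.0 and 122 CPM in Tyrphostin 6, Kit lies lower in batch 2, and the lowest Control point of batch 2 is Control 9 in every panel but that of Kit.

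Calls between batches held unevenly when libraries were left out. Over 17 fits, each without 1 library, 9 genes were called every time (Gdf9, H1foo, Kit, Nlrp14, Nlrp4f, Nobox, Tcl1, Tle6 and Zp3), Zar1 in 15, Zp2 in 11 and Zp1 in 10. With all libraries, Nobox, Zp3 and Zp1 passed the filter on low counts only with batch 2 libraries. Their repeated calls are therefore a description. Among Control libraries alone 4 genes were called (Zp3, Tle6, Nlrp4f and Kit), against 11% of all genes, with 19 of 21 values above 0 and a median of 1.06. Among Tyrphostin libraries alone 5 were called (Gdf9, Zp1, Nlrp4f, Tcl1 and H1foo), against 3.96% of all genes, with a median of 1.57 over the 21. Nlrp4f was the 1 gene called in both, at 1.09 and 1.52. Kit was at -1.65 in Control and -0.40 in Tyrphostin, with edgeR adjusted p of 0.0180 and 0.643.

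Some markers of other cell types also differed between batches. Of 8 theca and stroma markers tested edgeR called 5 higher in batch 2 and 0 lower, against 10.6% of all genes each way. The 5 were led by Dcn at 2.66 ± 0.44, Col3a1 at 1.94 ± 0.46 and Pdgfra at 1.78 ± 0.50 (SE). The rest of the 5 were Cyp17a1 at 1.64 ± 0.55 and Lhcgr at 0.86 ± 0.24 (SE). Lhcgr was also called higher in Tyrphostin (1.02 ± 0.24, SE; edgeR adjusted p = 0.00765). Col1a1 (0.80 ± 0.44) and Acta2 (-0.64 ± 0.55, SE) were not called between batches. The summed share of the theca and stroma markers ran from 0.390% to 1.50% of counts in batch 1 and from 0.770% to 2.12% in batch 2. Star, a steroid synthesis gene that was not called between batches (0.34 ± 0.24, SE), made up 66.9% to 95.7% of that sum. Without Star the share was 0.0554% to 0.118% in batch 1 and 0.0785% to 0.446% in batch 2. Insl3, a defining theca hormone, had 0 to 16 counts. Cumulus markers were lower in batch 2 for 3 of 5 genes, against 10.6% of all genes. Their summed share was 0.396% to 2.05% in batch 1 and 0.120% to 0.967% in batch 2. Of 8 granulosa markers tested edgeR called 0 (2 at an unadjusted p under 0.05), against 21.2% of all genes called. Their summed share, nearly all from Inha and Inhba, was 5.96% to 8.24% in batch 1 and 5.79% to 7.74% in batch 2. The share of mitochondrially encoded RNA was 2.31% ± 0.470 (SD, n = 9) in batch 1 and 1.32% ± 0.666 (SD, n = 8) in batch 2, or 1.55% to 2.83% and 0.175% to 1.94%. The part of these markers and of the mitochondrial share in the result was not tested.

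The 11 genes too low to test are accounted for by their counts. Oog1 had 133 counts over the 17 libraries, Nlrp9b 126, Gpr3, the receptor that keeps the oocyte in meiotic arrest, 108, Npm2, the oocyte nucleoplasmin, 104, Oosp1 62 and Lhx8 59. The germ cell RNA-binding proteins Dazl and Ddx4 had 37 and 28. Of the Ddx4 counts 3 came from batch 1 and 25 from batch 2. Khdc3, also known as FILIA, had 19, and the transcription factors Sohlh1 and Figla had 12 and 6, with 0 counts in 11 and 13 libraries. Oog1 and Nlrp9b passed the filter within batch 2, where Tyrphostin against Control gave 0.59 ± 0.58 and 1.36 ± 0.75 (SE). In libraries without a count the floor of 3 counts allows up to 0.336 to 1.64 CPM, so absence was not detectable at this depth. Exons of Khdc3, Nlrp9b, Npm2 and Gpr3 overlap those of other annotated genes, so their counts are uncertain.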

How the data were processed

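Bulk RNA-seq counts per gene were deposited by the authors as 1 table of 25198 genes and 17 libraries, of which every column was used and 0 were left out. STAR, HTSeq and the build GRCm38 are named in the submitters' processing notes, without versions. The annotation, strandedness and any gene filter are not given in the sources used here. The members and gene lists were chosen with earlier results of these data known.

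Groups and batches came from the labels. Counts were tested with edgeR 4.0.16 (quasi-likelihood, TMM scaling, robust, filterByExpr on treatment, treatment and batch as terms) in R 4.3.3, with Benjamini-Hochberg adjustment over all 9603 genes and a threshold of 0.05. A standard error is the absolute log2 fold change divided by the square root of F. CPM use TMM effective sizes. Exon lengths are unions of GENCODE exons on GRCm38, known for 9568 of the 9603 genes. Shares have 95% Wilson intervals, and the floor is 3 counts. The code was tested on simulated data. The 31 pairs of libraries of the same group and batch all differed by more than counting error (chi-square over its degrees of freedom 11.8 to 84.1). All 32 members could be named. Of the other oocyte genes, those with an adjusted p under 0.05 and the 3 with the highest average level were named, and other markers and partners were given by count, with values where a result turned on one.

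Alternatives were DESeq2 1.42.0, limma-voom (limma 3.58.1), other scalings, no filter or a minimum of 10 counts in 6 libraries, no batch term, control sets summed, a replicate block, an adjusted p under 0.01, and each library left out. Upper-quartile scaling and Tyrphostin libraries alone for the batch contrast were added after seeing the data. Figures were drawn with matplotlib 3.10.9.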

Additional observations from a re-analysis of the deposited data

Results flagged for a closer look

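Libraries far from the rest of their group were searched for in 69 groups of 5 or 6 samples (23 measures in 3 groups each), and 8 stood apart by Dixon's 95% criterion. Chance gives about 1 in 20 groups, or 3.45 here. Tyrphostin 6 accounted for 3: Zp2 was at 76.3 CPM there, against 4.16 to 24.8 CPM in the other Tyrphostin libraries. Padi6 was at 97.0 CPM, against 2.73 to 29.6 CPM, and Nlrp14 at 122 CPM, against 5.88 to 46.1 CPM. These 3 encode a zona protein and 2 proteins of the oocyte cytoplasm. In batch 2 Control, Control 9 was low for Zbed3 at 86.4 CPM, against 223 to 275 CPM. In the same group its 32 maternal genes held 0.0163% of counts, against 0.0486% to 0.0599%. In batch 1 Control, Dppa3 was at 7.83 CPM in Control 4, against 1.09 to 2.99 CPM. Nobox was at 6.21 CPM in Control 5, against 0 to 2.32 CPM. Mos was at 4.93 CPM in Control 6, the shallowest library, against 0.539 to 1.98 CPM. On the log2(CPM + 1) scale 3 groups of single genes stood apart, near the 1 in 20 that chance gives. Zp2, Padi6 and Nlrp14 in Tyrphostin 6 were not among them. The Tyrphostin group of this search held both batches, while Control was split by batch.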

How the results depend on the processing

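Between treatments the number of the 21 genes called was 0 under all alternatives except DESeq2, which called 1 (Zp2), and over the fits without 1 library it ran from 0 to 1 (1, again Zp2, without Tyrphostin 4). The 1018 genes called in all became 619 without a batch term and 478 at an adjusted p under 0.01, and ran from 708 (without Tyrphostin 1) to 1314 (without Control 7) with 1 library left out. The interaction called 1 gene, Padi6, without a filter on low counts, and 0 otherwise. Within batches the count was 0 throughout. Between batches the count of 13 was 4 with Control libraries alone and 5 with Tyrphostin libraries alone, which are fits of fewer samples, and 9 (without Tyrphostin 6) to 15 (without Control 4) with 1 library left out. Total-count scaling called 16 of the 21 between batches, where it put 1796 of all genes higher and 581 lower, against 1022 and 1017 with TMM. Between treatments it put 715 genes higher and 396 lower, against 418 and 600 with TMM. The cause was not tested.

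The sign of small treatment values turned. With total-count scaling Gdf9 was 0.052, Bmp15 0.082, Tcl1 0.030 and Zbed3 0.066. With limma-voom Bmp15 was 0.083, Tcl1 0.15, Kit -0.0064 and Tle6 -0.15. Without a batch term Gdf9 was 0.056 and Kit -0.076, and with control sets summed Gdf9 was 0.066, Tcl1 0.075 and Zbed3 0.034. Mos between batches was -0.081 in Tyrphostin alone. With 1 library left out the values ran from -0.35 to 0.054 for Gdf9, -0.19 to 0.070 for Bmp15, -0.11 to 0.63 for Zp1, -0.21 to 0.39 for Nobox, -0.26 to 0.26 for Tle6, -0.075 to 0.33 for Kit, -0.28 to 0.17 for Tcl1, -0.19 to 0.078 for Zbed3, -0.17 to 0.24 for H1foo and -0.059 to 0.55 for Zar1. The median of the 21 ran from -0.01 (without Tyrphostin 6) to 0.33 (without Tyrphostin 1). Averaged over the 2 batches, the share of the 32 genes was higher in Tyrphostin by 0.00408 (without Tyrphostin 6) to 0.0164 (without Tyrphostin 4) percentage points. In batch 1 it was lower in Tyrphostin (0.0399% against 0.0436% in Control), and in batch 2 higher (0.0718% against 0.0473%). The SD between libraries of the same group and batch was 0.0190 percentage points.

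With the replicate number as a block beside batch, 636 genes and 0 of the 21 were called between treatments. In that fit only numbers present in both groups within batch 1 inform the treatment term. The other numbers either pair a batch 1 Control with a Tyrphostin library of the other batch or occur in Control alone. The fit is therefore not a treatment comparison over all libraries. Gdf9 was at 0.029, Bmp15 at 0.86, Tcl1 at 0.18, Zbed3 at 0.13, Kit at -0.28, Dppa3 at -0.12 and Mos at 1.02. Same-numbered libraries correlated in their deviations by 0.32, 0.08, 0.05, 0.10, 0.03 and 0.11 for numbers 1 to 6. Differently numbered libraries were not correlated for reference, so these values cannot tell whether the numbers pair samples within batch 1.

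Depth limits the low genes, since 3 counts are up to 1.64 CPM in the shallowest library. With 3 Tyrphostin libraries in a batch, single libraries set several values.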

Other observations

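Other oocyte genes outside the list of 32 were described in the same contrasts. Of 47, 16 could be tested. Between treatments edgeR called 0 of them, against 10.6% of all genes, and 0 had an unadjusted p under 0.05, against 23.7%. Their median log2 fold change was -0.04. Between batches edgeR called 8 higher in batch 2, against 10.6% of all genes, and 0 lower, against 10.6%, with a median of 1.08. In fits of 1 batch alone, 10 of the 47 could be tested in batch 1 and 21 in batch 2. The count of 8 is therefore a description. The 8 included Omt2b at 1.77 ± 0.37, Accsl at 1.76 ± 0.31, Astl, the zona-cleaving protease ovastacin, at 1.65 ± 0.52, and Cpeb1, which controls the polyadenylation of stored mRNA, at 0.82 ± 0.25 (SE). The other 4 were Oas1c (1.03), Oas1d (1.14), Oas1e (1.19) and Oas1h (1.14), a family of close paralogs. Taf4b, which had the most counts of the 47, gave -0.71 ± 0.54, and Kpna7 -0.09 ± 0.21 (SE).

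The somatic partners of the oocyte signals were 7 genes. Between treatments edgeR called 1 of the 7, against 10.6% of all genes. This was Kitl, the granulosa cell ligand of Kit, higher in Tyrphostin at 1.23 ± 0.36 (SE; edgeR adjusted p = 0.0327). The receptors Bmpr2 and Bmpr1b gave 0.38 ± 0.24 and 0.25 ± 0.23 (SE), and the signal transducers Smad2 and Smad3 gave -0.24 ± 0.20 and -0.51 ± 0.18 (SE). Tgfbr1 gave -0.23 ± 0.34 and Acvr1 0.14 ± 0.22 (SE). Only Kitl passed. Between batches Acvr1 was higher in batch 2 (0.73, edgeR adjusted p = 0.0152) and Smad3 lower (-0.54, edgeR adjusted p = 0.0296). That is 1 of the 7 each way, against 10.6% of all genes each way. With so few genes these counts are a description.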
